A study of Arabidopsis thaliana with 18 samples.

Results

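Petioles of Arabidopsis thaliana accession Col-0 that had spent 24 h in low blue light together with a low ratio of red to far-red light (low R:FR) were set against petioles kept in control light. The members were taken by their labels: the 3 arrays of combined low blue and low R:FR light and the 3 arrays of control light, 6 of the 18 arrays of the series, with all 22746 probe sets that are not array controls. The petiole is the leaf stalk, which elongates in shaded rosettes. The other 12 arrays hold 3 each of low R:FR alone, low blue alone, plants in a dense canopy and single plants kept beside that canopy. All groups share accession and tissue and carry no transgene or mutation in the labels. Seeds were stratified at 4 °C for 3 d, and seedlings were potted singly after 10 d and grown until day 28 at 20 °C and 70% relative humidity, with 15 h of dark and 9 h of light a day (180 µmol per m2 per s). Plants of the 4 light groups stood singly and were harvested at 29 d. The canopy, at 2066 plants per m2, and its single plants were harvested at 37 d, with petioles of 4 plants pooled per replicate. For the light groups the labels do not say whether replicates came from separate pools, so p-values measure the spread between these samples, which may be technical.

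In a canopy, leaves absorb red and blue light and pass or reflect far-red. Phytochromes read the ratio of red to far-red, and cryptochromes read blue light. In both cases less light signal to the receptor releases growth-promoting PIF transcription factors, and elongation of the petiole is accompanied by auxin and brassinosteroid signalling and by remodelling of the cell wall, where xyloglucan ties cellulose microfibrils together.

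Levels below are log2 values as deposited, and each change is combined minus control light with the standard error from limma after ±. A probe set was called at a Benjamini-Hochberg adjusted p under 0.05 over all probe sets. In combined against control light 514 probe sets were called, 2.26% of those tested, with 352 higher (1.55%) and 162 lower (0.712%). The median change over all probe sets was -0.0044, and 197 called probe sets differed by at least 1, of which 148 were higher and 49 lower. At an unadjusted p under 0.05 there were 2868. In 513 of the 514, all 3 arrays of one group lay above all 3 of the other, as they did in 15.5% of all probe sets (7.97% higher and 7.52% lower). For a single gene an exact permutation test of 3 against 3 arrays cannot go below p = 0.1. Arrays within a group correlated at 0.9781 to 0.9939, and the number of arrays limits the precision. In bulk tissue, fewer cells of a type and less RNA per cell cannot be told apart.

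The 3 control light arrays differed more among themselves than the combined arrays did, in a limited set of genes. Control light replicate 3 had 71 probe sets more than 2 log2 units from the median of the other 11 light arrays, and replicates 2 and 1 had 25 and 8, against 8, 11 and 12 on the combined arrays. Low blue replicate 1 had 43. On control replicate 3, 63 of its 71 lay above that median. Compared with control replicate 1, 87 probe sets were higher by more than 2 on control replicate 3. In 54 of these, low blue replicate 1 was the highest of the combined, low R:FR and low blue arrays. The genes given next were chosen from the 10 with the widest spread in control light, which also widens the standard error of their change. Prx37, a class III peroxidase gene, lay at 0.78, 1.19 and 1.15 in combined and at 1.14, 3.39 and 5.11 in control light (change -2.18 ± 0.96, adjusted p = 0.35). Its combined arrays and control replicate 1 were all low, and control replicates 2 and 3 were high. Low blue replicate 1, at 5.45, was higher still, with 1.23 and 1.14 on the other low blue arrays. AT2G43590 had the same order, with 3.23, 2.69 and 3.82 in combined and 3.70, 6.99 and 7.5 in control light. Its low blue arrays lay at 7.84, 3.40 and 1.13. PDF1.2, a plant defensin gene that responds to jasmonate, lay at 7.86, 7.10 and 8.20 in combined and 4.44, 8.87 and 8.83 in control light. Control replicate 1 was again the low control array, but here the combined arrays lay well above it and below control replicates 2 and 3. AT3G05730 stood out on control replicate 1 alone, at 4.88, against 0.96 and 0.88 on the other control arrays and 0.99, 0.96 and 0.79 in combined.

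**Figure D1:**
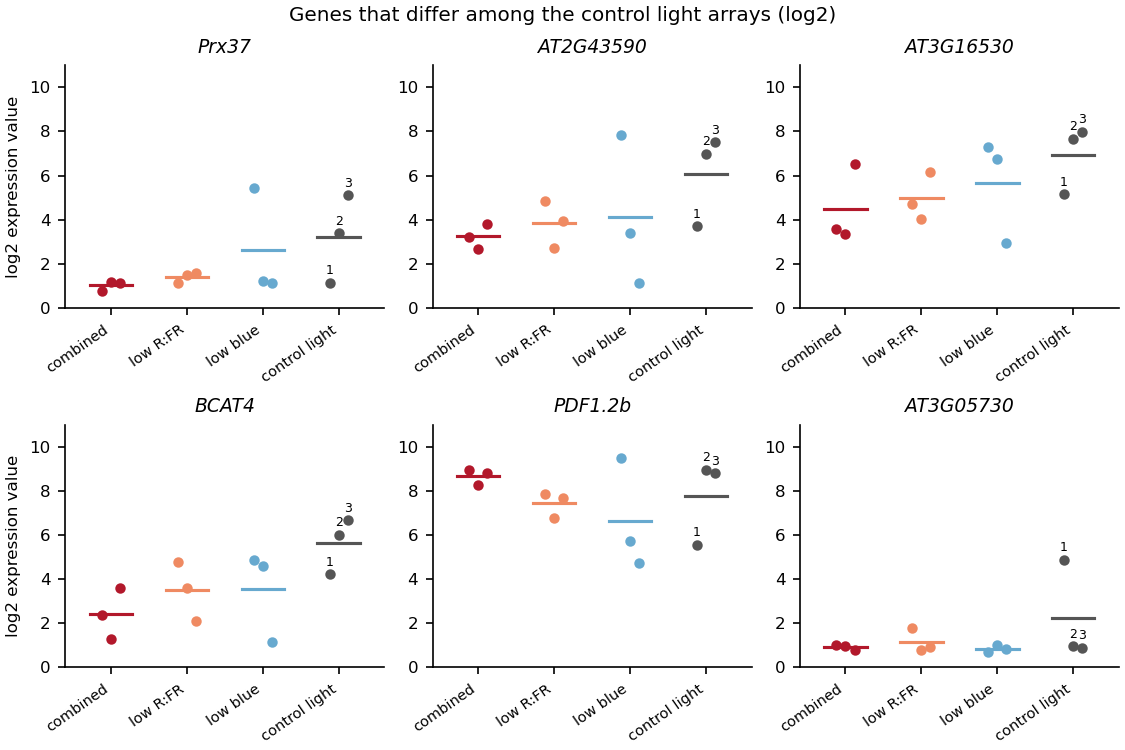
Log2 levels of 6 genes on the 3 arrays each of combined, low R:FR, low blue and control light (left to right), with control arrays numbered by replicate. Control arrays spread over several log2 units, as for Prx37 at 1.14, 3.39 and 5.11, while the combined arrays of Prx37 lay between 0.78 and 1.19. Low blue arrays of Prx37 spread as well, at 5.45, 1.23 and 1.14.

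Other cell types that petiole tissue holds, and root, were looked at by markers, with 1 gene each for mesophyll, phloem, xylem and epidermis. The mesophyll gene RCA, which encodes Rubisco activase, lay at 10.87, 10.98 and 11.15 in combined and at 11.03, 10.95 and 11.00 in control light. SWEET11, a sucrose exporter gene of the phloem, lay at 1.31, 1.4 and 1.29 in combined and 1.32, 1.45 and 1.17 in control light, near the floor of the arrays. The xylem gene GUT2 had a change of -0.10, the epidermal gene TRY of -0.05 and the root gene PYK10 of 0.15, all uncalled. TRY, with means of 1.16 in combined and 1.21 in control light, and PYK10, with 1.33 and 1.19, also lay near the floor. SWEET11 and TRY therefore say little about phloem and epidermis. Of 4 guard cell markers 0 were called. FMA, SPCH and MUTE had changes of -0.21, 0.03 and 0.11. The log2 of the summed unlogged levels of all 4 was 3.38 to 3.62 in combined and 3.84 to 4.55 in control light. A mean below 1.5 was found in 2 of the 4 markers. CHX20, a cation/proton exchanger gene of guard cells, had the largest change among them, at 2.24, 1.77 and 1.77 in combined and 2.78, 3.16 and 3.99 in control light (-1.38 ± 0.36, adjusted p = 0.059). CHX20 also had the highest mean level of the 4 and so weighs most in that sum. Its part in the results below was not tested.

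Of 5 measured expansin-like genes 3 were called higher and 0 lower, with changes of 0.87 to 2.80. Over all probe sets 1.55% were called higher and 0.712% lower, the shares to set beside this and the list counts below. A single call in a list is not read as a result about that list. EXLA1, EXLA2 and EXLA3 encode expansin-like A proteins, wall proteins related to expansins whose own activity on walls is unsettled. EXLA1 had levels of 6.78, 6.74 and 6.84 in combined and 4.68, 3.36 and 3.91 in control light. The combined arrays lay close together and far above the control arrays, which spread widely. That is 6.98-fold higher (2.80 ± 0.36, adjusted p = 0.00037). EXLA2 had levels of 6.0, 6.48 and 6.25 in combined and 5.02, 4.58 and 4.16 in control light (1.66 ± 0.20, adjusted p = 0.00015). EXLA3, whose control levels of 1.18, 1.07 and 0.92 are at the floor, had levels of 1.80, 2.14 and 1.85 in combined (0.87 ± 0.14, adjusted p = 0.0026), so its fold is understated. The groups did not overlap for any of the 3. The median change over the 5 was 0.87. EXLB1, of the related B group, was not called (6.73, 6.56 and 6.46 in combined, against 6.14, 6.50 and 6.46 in control light), nor was AT4G30380 (-0.04, adjusted p = 0.93). The 3 EXLA calls held when any 1 of the 6 arrays was left out.

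Xyloglucan endotransglucosylase/hydrolases (XTHs) cut and rejoin the xyloglucan chains of the wall. Of 10 measured XTH genes 5 were called higher and 0 lower, against 1.55% and 0.712% over all probe sets. Their median change was 0.62. XTH19 had levels of 5.25, 4.39 and 4.76 in combined and 2.52, 2.15 and 1.38 in control light (2.79 ± 0.44, adjusted p = 0.0018). XTH16 had levels of 5.36, 5.23 and 4.81 in combined and 3.29, 2.59 and 1.74 in control light (2.59 ± 0.33, adjusted p = 0.0003). In both genes control replicate 3 was the lowest array, and every combined array lay well above every control array. XTH33 had levels of 2.60, 2.41 and 2.84 in combined and 1.45, 1.34 and 1.41 in control light (1.22 ± 0.17, adjusted p = 0.00054). EXGT-A3, also known as XTH27, had levels of 7.32, 6.99 and 7.13 in combined and 6.16, 6.04 and 5.73 in control light (1.17 ± 0.12, adjusted p = 2.4e-05). XTH18 had levels of 2.23, 2.24 and 2.39 in combined and 1.31, 1.2 and 0.96 in control light (1.13 ± 0.12, adjusted p = 5.6e-05). XTH33 and XTH18 thus left the floor of the arrays in combined light, whereas EXGT-A3 was well measured in both groups. The other 5 were not called. XTH20, XTH21, XTH26 and XTH29 lay near the floor in both groups, with changes of -0.17 to 0.12. XTH32 was well measured and had 8.54, 8.22 and 8.35 in combined and 8.68, 8.42 and 8.18 in control light, with overlapping groups. The 5 calls held when any 1 of the 6 arrays was left out.

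**Figure D2:**
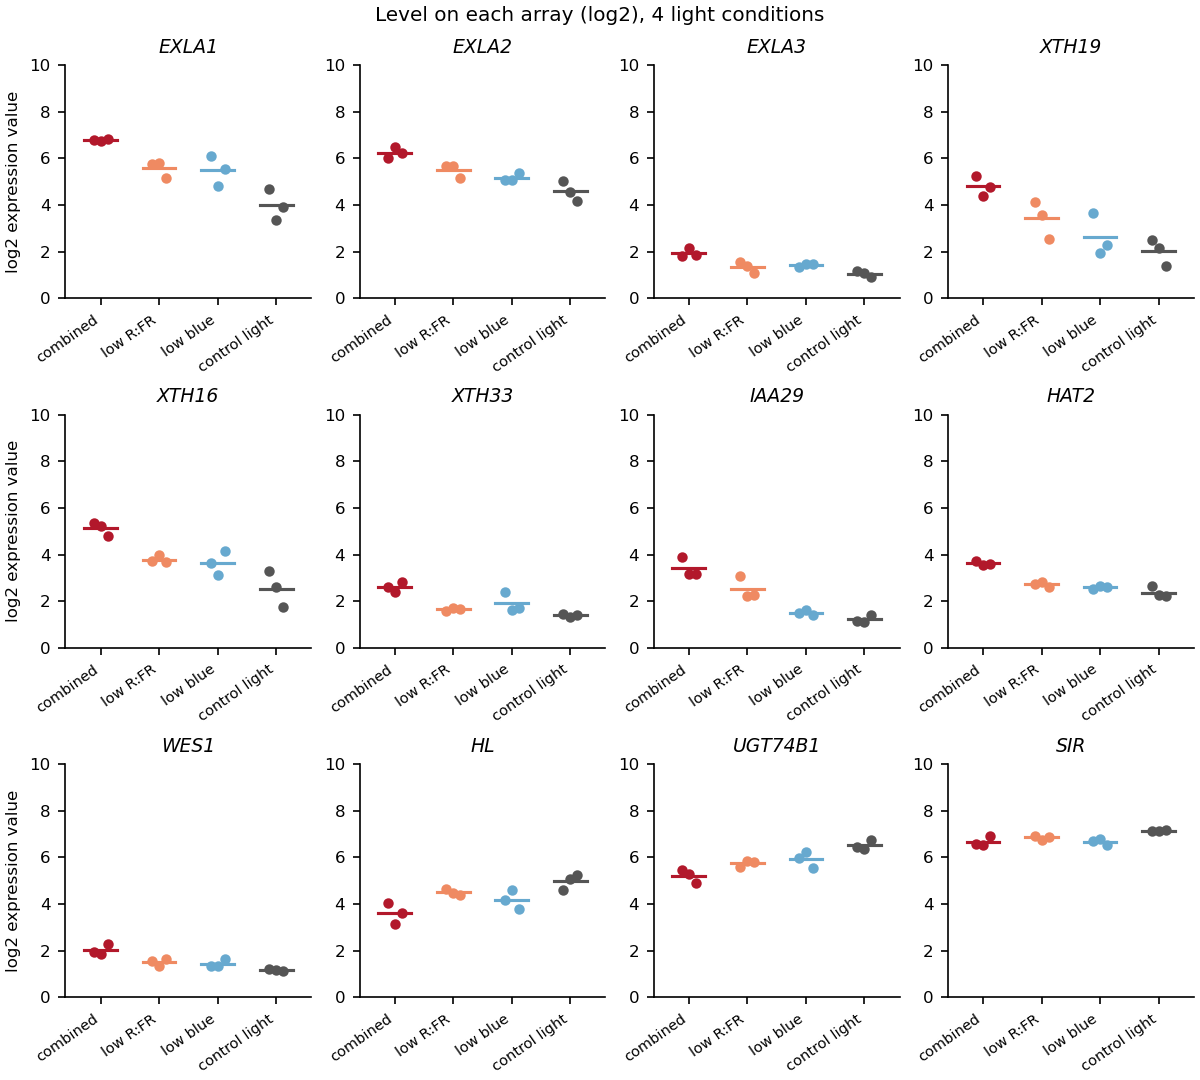
Log2 levels of 12 genes on each array (dots) with the group mean (bar), for combined, low R:FR, low blue and control light. In the wall and auxin genes the 3 combined dots lie above the 3 control dots, and in HL, UGT74B1 and SIR below them.

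The CSLC genes, a family that holds synthases of the xyloglucan backbone, were set apart from a longer wall list after their values were seen. Of 5 measured, 2 were called higher and 0 lower, against 1.55% higher over all probe sets. Their count therefore stands for no family. CSLC04, a xyloglucan glucan synthase, had levels of 7.08, 7.15 and 7.60 in combined and 6.51, 6.43 and 6.47 in control light (0.81 ± 0.19, adjusted p = 0.029). ATCSLC08, of the same family, had levels of 2.89, 3.48 and 2.96 in combined and 2.59, 2.44 and 2.59 in control light (0.57 ± 0.14, adjusted p = 0.049). CSLC6 (0.42, adjusted p = 0.093), CSLC5 (0.21, adjusted p = 0.73) and CSLC12 (0.155, adjusted p = 0.74) were not called. The endo-1,4-β-glucanase gene GH9C2 fell, with levels of 7.38, 7.26 and 7.22 in combined and 8.18, 8.05 and 7.85 in control light (-0.74 ± 0.16, adjusted p = 0.017). CSLC04, ATCSLC08 and GH9C2 are the called members among 27 measured genes of cellulose synthesis and wall proteins, whose median change was 0.08. Of the 27, 14 had a mean below 1.5. The CSLC04 call was lost without combined replicate 2 or 3 or control replicate 2 or 3, with an adjusted p of up to 0.13. That of ATCSLC08 was lost without any 1 array but combined replicate 1, up to 0.24 without combined replicate 2. That of GH9C2 was lost without combined replicate 2 or 3 or control replicate 1 or 2, up to 0.072.

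Expansins proper, which loosen walls under acid, were not called as a family (0 of 14, median 0.02). Of the 14, 9 had a mean below 1.5, near the floor. EXPA8 lay at 5.69, 5.42 and 6.21 in combined and 4.29, 5.15 and 5.33 in control light (0.85 ± 0.24, adjusted p = 0.087), with all combined arrays above the control arrays. EXPB1 lay at 4.57, 5.10 and 5.07 in combined and 3.92, 3.99 and 4.20 in control light (0.87 ± 0.26, adjusted p = 0.1). EXPA4 lay at 2.47, 2.62 and 2.65 in combined and 2.98, 3.72 and 3.60 in control light (-0.86 ± 0.27, adjusted p = 0.13). Thus 2 expansins had higher and 1 had lower values without reaching the threshold. Genes of pectin modification, 10 of 29 with a mean below 1.5, had 0 of 29 called and a median of -0.01. The largest value among them was that of the pectin methylesterase gene ATPMEPCRB, at 6.65, 5.93 and 6.16 in combined and 4.91, 4.84 and 5.01 in control light (1.32 ± 0.40, adjusted p = 0.11).

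The next 5 called genes encode secreted or cell-surface proteins and were grouped after their values were seen, so they stand for no family. RALF peptides are secreted signals read at the wall and plasma membrane. RALFL22 had levels of 6.99, 6.98 and 6.66 in combined and 5.65, 5.87 and 6.05 in control light (1.02 ± 0.14, adjusted p = 0.00052). RALFL33 had levels of 7.61, 7.40 and 7.5 in combined and 6.84, 6.25 and 6.38 in control light (1.01 ± 0.19, adjusted p = 0.0088). The 2 peptide genes were 2.02-fold and 2.01-fold higher, with no overlap between groups. THE1, a receptor kinase that monitors wall integrity, had levels of 5.09, 4.77 and 4.93 in combined and 4.19, 4.03 and 4.33 in control light (0.75 ± 0.18, adjusted p = 0.036). SKU5, a membrane-anchored protein needed for directional growth of roots, had levels of 8.55, 8.66 and 8.53 in combined and 8.04, 7.84 and 7.18 in control light (0.89 ± 0.21, adjusted p = 0.031). The subtilase gene SBTI1.1, which encodes a secreted protease, was higher by 0.98 ± 0.15 (adjusted p = 0.0017). RALFL22 and SBTI1.1 stayed called without any 1 array, whereas RALFL33 reached an adjusted p of 0.057 without control replicate 2. THE1 lost its call without any 1 of the 6 arrays, with up to 0.15, and SKU5 without any 1 but control replicate 1, also with up to 0.15.

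In the cytoskeleton 1 of 12 genes was called. ACT11, an actin gene, had levels of 5.44, 5.66 and 5.16 in combined and 4.75, 3.93 and 3.66 in control light (1.31 ± 0.26, adjusted p = 0.011). The call was lost without combined replicate 2 or control replicate 2 or 3, with an adjusted p of up to 0.067. Among the uncalled tubulin genes TUB7 had the highest value, at 0.57 (adjusted p = 0.094), and the list's median was 0.22. Aquaporin and proton pump genes had 0 of 4 called, with VHA-A2, a vacuolar proton pump subunit, at 0.54 ± 0.15 (adjusted p = 0.07).

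**Figure D3:**
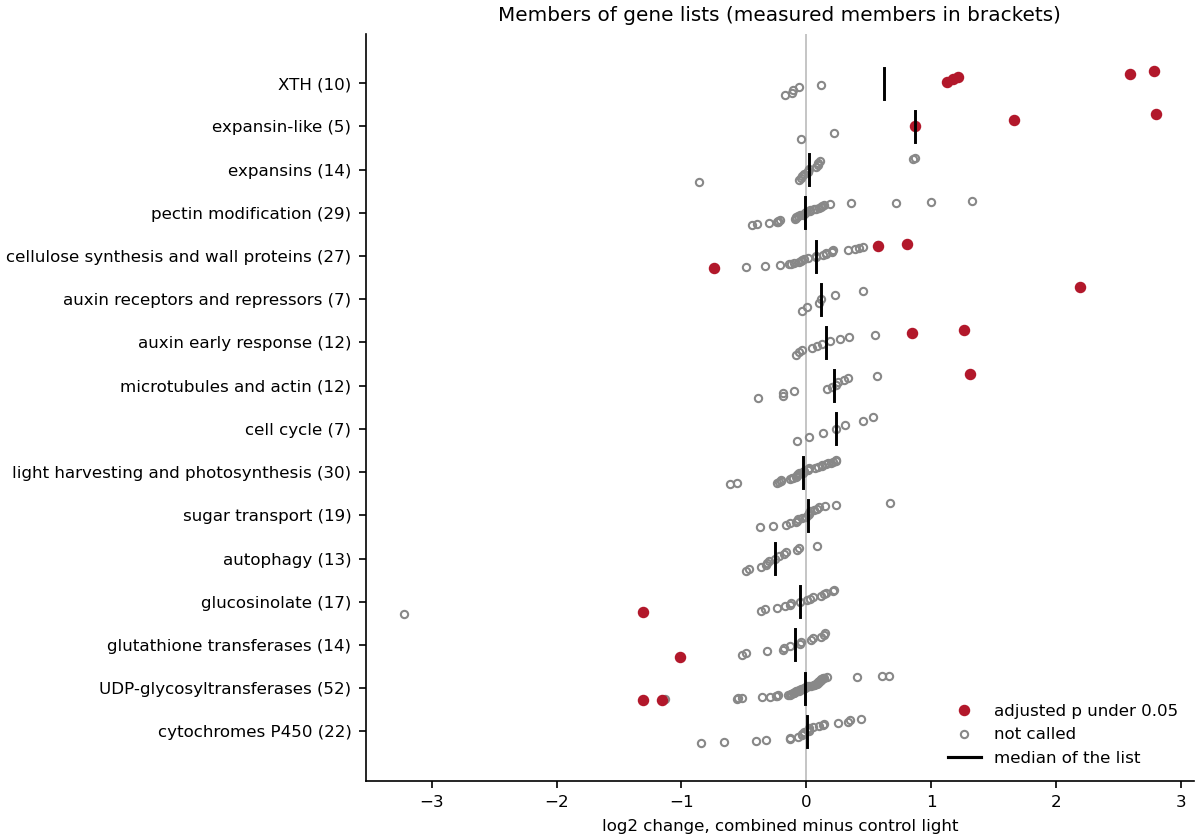
Log2 change, combined minus control light, of every measured member of 16 gene lists. Filled dots are called members, open dots are not called and the short line is the list median, 0.62 for XTH, 0.87 for expansin-like and 0.02 for expansins.

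Among auxin genes, repressor and early response genes held the calls. IAA29 encodes an Aux/IAA protein, a repressor that auxin itself induces and then has degraded. Its levels were 3.89, 3.15 and 3.18 in combined and 1.15, 1.11 and 1.39 in control light, at the floor there (2.19 ± 0.21, adjusted p = 2e-05), so its fold is understated. Of 7 measured receptor, repressor and response factor genes it was the 1 called, and the median of that list was 0.12. Of the 7, 5 had a mean below 1.5. HAT2, an HD-ZIP II transcription factor gene that auxin and shade induce, had levels of 3.74, 3.56 and 3.59 in combined and 2.63, 2.26 and 2.22 in control light (1.26 ± 0.12, adjusted p = 2.4e-05). WES1, which encodes the GH3.5 enzyme that conjugates auxin to amino acids, had levels of 1.93, 1.85 and 2.27 in combined and 1.2, 1.18 and 1.14 in control light (0.84 ± 0.15, adjusted p = 0.0054). HAT2 and WES1 are the 2 called of 12 early response genes, whose median was 0.16. Of these 12, 8 had a mean below 1.5. The 4 measured genes of auxin synthesis and transport had a median of 0.04 and 0 calls. YUC11 had a mean change of -0.24 ± 0.10 (adjusted p = 0.31), and all 4 had a mean below 1.5. IAA29, HAT2 and WES1 stayed called without any 1 array.

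Among other hormones, the brassinosteroid-regulated growth gene EXO had levels of 5.96, 6.74 and 6.40 in combined and 4.91, 3.85 and 3.94 in control light (2.13 ± 0.46, adjusted p = 0.019). EXO was the 1 called of 3 brassinosteroid genes, with a list median of -0.03. It lost its call without combined replicate 2 or 3 or control replicate 2 or 3, with an adjusted p of up to 0.097. GID1A, a gibberellin receptor gene, fell, with 1.53, 1.60 and 1.75 in combined and 1.98, 2.49 and 2.40 in control light (-0.66 ± 0.15, adjusted p = 0.027). Its call was lost without combined replicate 1 or 2 or control replicate 2 or 3, with up to 0.14. The receptor paralogues GID1B and GID1C, at 0.06 and 0.08, were not called. GID1A was the 1 called of 5 gibberellin genes, with a list median of 0.06. Cytokinin genes had 0 of 6 called with a median of 0.05, and abscisic acid and water deficit genes 0 of 13 with a median of 0.02. A mean below 1.5 was found in 5 of the 6 and 5 of the 13. AFR, an F-box gene of phytochrome A signalling, rose, with 5.05, 5.19 and 4.99 in combined and 4.52, 4.47 and 3.88 in control light (0.79 ± 0.19, adjusted p = 0.032). It lost its call without any 1 array but control replicate 1, with up to 0.16. AFR was the 1 called of 3 light signalling genes, and HYH, at 0.66 (adjusted p = 0.35), was not called.

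Transcription factors and cell signalling held further calls. BZIP61 had levels of 6.21, 6.06 and 6.04 in combined and 3.97, 4.08 and 3.10 in control light, 5.24-fold higher (2.39 ± 0.28, adjusted p = 0.00015). The related bZIP genes BZIP34 and bZIP52 were also called, with 2.73, 2.31 and 3.00 for BZIP34 in combined and 1.63, 1.4 and 1.26 in control light (1.25 ± 0.14, adjusted p = 8.7e-05). For bZIP52 the values were 2.11, 1.82 and 2.43 in combined and 1.05, 1.34 and 1.46 in control light (0.84 ± 0.17, adjusted p = 0.01). All 3 bZIP genes were higher on every combined array, as were 7.97% of all probe sets and nearly all that were called higher. They were grouped after their values were seen and stand for no family. BZIP53 was not called (0.28, adjusted p = 0.68). The bZIP52 call reached 0.054 without combined replicate 3. ULT1, a regulator of meristem genes with trithorax-type activity, was higher by 0.78 ± 0.18 (adjusted p = 0.024). bHLH115, a transcription factor of the iron deficiency response, changed by -0.75 ± 0.18 (adjusted p = 0.041). Both calls were lost without any 1 array but control replicate 1, with up to 0.12 for ULT1 and 0.19 for bHLH115. DI19, a drought-induced zinc finger gene, changed by -0.43 ± 0.10 (adjusted p = 0.04) and lost its call without any 1 of the 6 arrays, with up to 0.15.

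CLE41, the gene of the phloem peptide that keeps the cambium dividing, fell, with 5.29, 5.01 and 5.16 in combined and 5.97, 5.98 and 5.68 in control light (-0.73 ± 0.13, adjusted p = 0.0057). PUB25, a U-box ubiquitin ligase gene, rose by 0.65 ± 0.13 (adjusted p = 0.0088), and PRA1.B6, a prenylated Rab acceptor gene of the secretory system, rose by 1.23 ± 0.22 (adjusted p = 0.006). Of the cell division genes, UBC20, a ubiquitin-conjugating enzyme gene expressed in dividing cells, had levels of 3.28, 3.58 and 2.61 in combined and 1.80, 2.02 and 1.51 in control light (1.38 ± 0.25, adjusted p = 0.0057). The mitotic aurora kinase gene AUR2 lay at 1.92, 1.82 and 2.09 in combined and 1.51, 1.27 and 1.09 in control light (0.65 ± 0.15, adjusted p = 0.027). AUR2 lost its call without any 1 array but control replicate 1, with up to 0.14. SKP2A, an F-box gene that targets cell-cycle factors, fell by 0.79 on the log2 scale (adjusted p = 0.014) and lost its call without combined replicate 1 or 2 or control replicate 2 or 3, with up to 0.085. In the list of 7 cell cycle genes, which holds neither UBC20 nor AUR2, 0 were called, 6 were above 0 and the median was 0.24.

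Genes of sulfur use and methionine breakdown moved in both directions. These were grouped after their values were seen. MGL, methionine γ-lyase, had levels of 6.34, 6.19 and 6.45 in combined and 5.47, 5.70 and 5.01 in control light (0.93 ± 0.15, adjusted p = 0.0025). HMT-1, a homocysteine S-methyltransferase gene, had levels of 5.20, 5.45 and 5.13 in combined and 3.72, 3.99 and 2.82 in control light (1.75 ± 0.26, adjusted p = 0.0014). Both were higher on every combined array. Another 4 genes of sulfur use were called lower. APS3, an ATP sulfurylase gene that takes the first step of that pathway, had levels of 3.93, 4.15 and 4.15 in combined and 4.94, 4.65 and 5.36 in control light (-0.90 ± 0.21, adjusted p = 0.033). SIR, sulfite reductase, had levels of 6.59, 6.54 and 6.91 in combined and 7.14, 7.13 and 7.16 in control light (-0.46 ± 0.10, adjusted p = 0.018). HL, a phosphatase of the sulfation by-product PAP, had levels of 4.06, 3.15 and 3.60 in combined and 4.59, 5.09 and 5.24 in control light (-1.37 ± 0.23, adjusted p = 0.0028). UGT74B1, a glucosyltransferase of glucosinolate synthesis, had levels of 5.44, 5.31 and 4.91 in combined and 6.44, 6.38 and 6.76 in control light, 2.47-fold lower (-1.31 ± 0.17, adjusted p = 0.0004). All 4 were lower on every combined array. ARD4, an enzyme gene of methionine salvage, changed by -0.48 ± 0.12 (adjusted p = 0.038) and lost its call without any 1 of the 6 arrays, with up to 0.15. APS4, at -1.04 ± 0.33 (adjusted p = 0.13), was not called. BCAT4, which starts the chain elongation of methionine for glucosinolates, lay at 2.37, 1.26 and 3.57 in combined and 4.22, 6.01 and 6.65 in control light (-3.23 ± 0.95, adjusted p = 0.1). Its groups did not overlap and its arrays spread by more than 2 units within each group. Of 17 measured glucosinolate genes 1 was called lower, UGT74B1, with a list median of -0.05. Of 14 nitrogen, sulfur and phosphate genes 1 was called, APS3, with a median of -0.03. A mean below 1.5 was found in 9 of the 17 and 6 of the 14. UGT74B1, HL, HMT-1 and MGL stayed called without any 1 array. APS3 lost its call without any 1 array but control replicate 2, with up to 0.16, and SIR without combined replicate 1 or 2 or control replicate 2 or 3, with up to 0.1.

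Further called genes of metabolism are given singly. UGT78D1, a rhamnosyltransferase of flavonols, had levels of 4.67, 4.38 and 4.13 in combined and 5.91, 5.31 and 5.42 in control light (-1.16 ± 0.20, adjusted p = 0.0041), the 1 called of 7 flavonoid genes. THIC, which makes the pyrimidine of thiamine, had levels of 3.88, 4.46 and 4.62 in combined and 5.02, 5.24 and 4.98 in control light (-0.76 ± 0.15, adjusted p = 0.0094, and 0.058 without control replicate 2). GSTU20, a glutathione transferase gene, had levels of 8.16, 7.38 and 7.80 in combined and 8.78, 8.75 and 8.85 in control light (-1.01 ± 0.22, adjusted p = 0.021), the 1 called of 14 glutathione transferases. SFP1, a sugar porter gene, had levels of 4.23, 3.43 and 3.63 in combined and 5.33, 4.92 and 4.48 in control light (-1.15 ± 0.26, adjusted p = 0.027). GSTU20 lost its call without combined replicate 2 or 3 or control replicate 2 or 3, with up to 0.13, and SFP1 without combined replicate 2 or 3 or control replicate 1 or 2, with up to 0.15. PMEAMT, of phosphocholine synthesis, changed by -0.58 ± 0.14 (adjusted p = 0.044), a call lost without any 1 array but control replicate 3, with up to 0.2. Of 52 UDP-glycosyltransferase genes 2 were called lower, UGT74B1 and UGT78D1, with a list median of -0.01, and of 22 cytochromes P450 0 were called. In these lists 31 of the 52 and 13 of the 22 had a mean below 1.5, as had 3 of the 7 flavonoid and 7 of the 14 glutathione transferase genes.

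Several other groups had no or few called members. Light harvesting and photosynthesis had 0 of 30 called with a median of -0.02, among them 20 plastid and 10 nuclear genes. The antenna gene LHCB4.3 had the lowest value, at 5.19, 5.39 and 5.95 in combined and 6.17, 6.29 and 5.91 in control light (-0.61 ± 0.16, adjusted p = 0.054). Chlorophyll and carotenoid synthesis had 0 of 11, and autophagy 0 of 13 with a median of -0.25 and 1 member above 0. Oxidative stress had 0 of 15, senescence 0 of 5 and sugar transport 0 of 19. A mean below 1.5 was found in 13 of the 19 sugar transport, 7 of the 15 oxidative stress and 3 of the 5 senescence genes. Defence genes had 1 of 22 called, the defensin-like gene LCR69, at 6.88, 7.01 and 6.71 in combined and 5.98, 5.72 and 5.51 in control light (1.13 ± 0.13, adjusted p = 8.3e-05). Of the 22, 15 had a mean below 1.5. In the sugar and low energy list, MGL and BZIP61 were the 2 called of 6, with a list median of 0.14. Both are given above under other headings, so this count is not read as a result about low energy. The share called over all probe sets was 2.26%. The remaining called genes with a symbol were GPDHC1, scpl40, TET10 and P1R3, with changes of 0.53 to 0.75, and SGP1 and LSM6A, with changes of -0.83 and -0.50. Each of these 6 lost its call without 1 or more single arrays, among them combined replicate 2. Over the 54 called genes with a symbol, 25 stayed called without any 1 of the 6 arrays, 21 higher and 4 lower, and 29 did not.

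Many called probe sets carry loci without a symbol in the tables used here, 169 probe sets in all, against 54 with one. AT1G69570 had levels of 4.89, 4.51 and 4.44 in combined and 2.20, 2.02 and 2.28 in control light (2.44 ± 0.16, adjusted p = 3.6e-07), 5.45-fold higher with a small spread in both groups. AT4G25260 had levels of 6.79, 6.73 and 6.85 in combined and 4.57, 4.46 and 4.83 in control light (2.17 ± 0.15, adjusted p = 6.1e-07). AT4G27280 had levels of 6.03, 6.33 and 5.99 in combined and 4.03, 3.99 and 5.02 in control light (1.78 ± 0.24, adjusted p = 0.00044). On the lower side, AT4G24780 had levels of 5.83, 5.53 and 5.88 in combined and 7.08, 7.07 and 7.2 in control light (-1.36 ± 0.14, adjusted p = 3.8e-05). AT1G74940 had levels of 2.24, 1.81 and 2.55 in combined and 3.71, 3.79 and 4.51 in control light (-1.80 ± 0.26, adjusted p = 0.0011). None of these 5 lost its call when 1 of the 6 arrays was left out. The lowest change among called probe sets with a gene was that of AT1G67860, at -2.18 ± 0.49 (adjusted p = 0.024), with 1.71, 1.59 and 1.78 in combined and 3.66, 3.69 and 4.28 in control light. Its call was lost without any 1 array but control replicate 1, with up to 0.1.

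Combined light was then compared with each light signal alone. Low R:FR against control light had 197 called probe sets (0.866%) and low blue against control light 132 (0.580%). These share the control light arrays with the combined comparison, so their values stand side by side and no overlap is read as a result. Among the 352 probe sets higher in combined light, the median change was 0.93 in combined, 0.48 in low R:FR and 0.40 in low blue. Among the 162 lower ones it was -0.80 in combined, -0.46 in low R:FR and -0.38 in low blue. Both sets were chosen by their combined change, which favours a larger combined median, so these medians only describe the sets. The combined arrays tested directly against low R:FR gave 102 called probe sets (0.448%), 43 higher (0.189%) and 59 lower (0.259%), and against low blue 292 (1.28%), 179 higher (0.787%) and 113 lower (0.497%).

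HAT2 was called in both direct tests. Its levels of 3.74, 3.56 and 3.59 in combined lay above 2.74, 2.82 and 2.60 in low R:FR and 2.52, 2.66 and 2.59 in low blue, while control light had 2.63, 2.26 and 2.22. The difference was 0.91 ± 0.12 against low R:FR (adjusted p = 0.0027) and 1.04 ± 0.12 against low blue (adjusted p = 0.0002). XTH18 was called in both as well, with 1.56, 1.38 and 1.44 in low R:FR and 1.44, 1.51 and 1.27 in low blue, by 0.82 ± 0.12 (adjusted p = 0.0037) and 0.88 ± 0.12 (adjusted p = 0.001). BZIP34 was the same, by 0.68 ± 0.14 (adjusted p = 0.038) and 0.92 ± 0.14 (adjusted p = 0.0023). BZIP34 lost its call against low R:FR without any 1 array but combined replicate 2, with up to 0.17. In XTH18 and HAT2 the single-signal groups lay close to control light and the combined group lay clear of all 3.

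Some genes with large combined changes were called against neither single signal. EXLA1 lay 1.21 above low R:FR (adjusted p = 0.22) and 1.29 above low blue (adjusted p = 0.11). BZIP61 lay 1.01 and 0.90 above them (adjusted p = 0.17 in both tests). EXO lay 1.68 (adjusted p = 0.16) and 0.55 (adjusted p = 0.75) above them. Other genes differed from 1 single signal in the direct tests. IAA29 differed from low blue by 1.90 ± 0.21 (adjusted p = 0.00014) and had a difference of 0.89 ± 0.21 from low R:FR (adjusted p = 0.087). MGL differed from low blue by 1.27 ± 0.15 (adjusted p = 0.0002) and had a difference of -0.48 ± 0.15 from low R:FR (adjusted p = 0.26), with levels of 6.96, 6.78 and 6.68 in low R:FR. LCR69 was 1.01 above low blue (adjusted p = 0.00033) and 0.23 above low R:FR (adjusted p = 0.71). EXGT-A3 was 0.79 above low R:FR (adjusted p = 0.0037) and 0.46 above low blue (adjusted p = 0.064). UGT78D1 differed from low R:FR by -1.14 ± 0.20 (adjusted p = 0.013) and had a difference of -0.21 from low blue (adjusted p = 0.79). THIC likewise differed from low R:FR by -0.77 (adjusted p = 0.026) and had a difference of 0.19 from low blue (adjusted p = 0.72). XTH19 was above low blue by 2.17 ± 0.44 (adjusted p = 0.019) but lost its call without combined replicate 1 or 3 or low blue replicate 2 or 3, with up to 0.11. The call of UGT78D1 against low R:FR was lost without combined replicate 2 or 3 or low R:FR replicate 1, with up to 0.08, and that of THIC without combined replicate 1 or low R:FR replicate 1 or 2, with up to 0.14. The difference between the low R:FR and low blue contrasts is not read from these pairs of p-values. PORB, a protochlorophyllide reductase gene, was opposite in the single signals, with -1.11 in low R:FR (adjusted p = 0.018) and 1.04 in low blue (adjusted p = 0.042), and -0.40 in combined (adjusted p = 0.48).

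**Figure D4:**
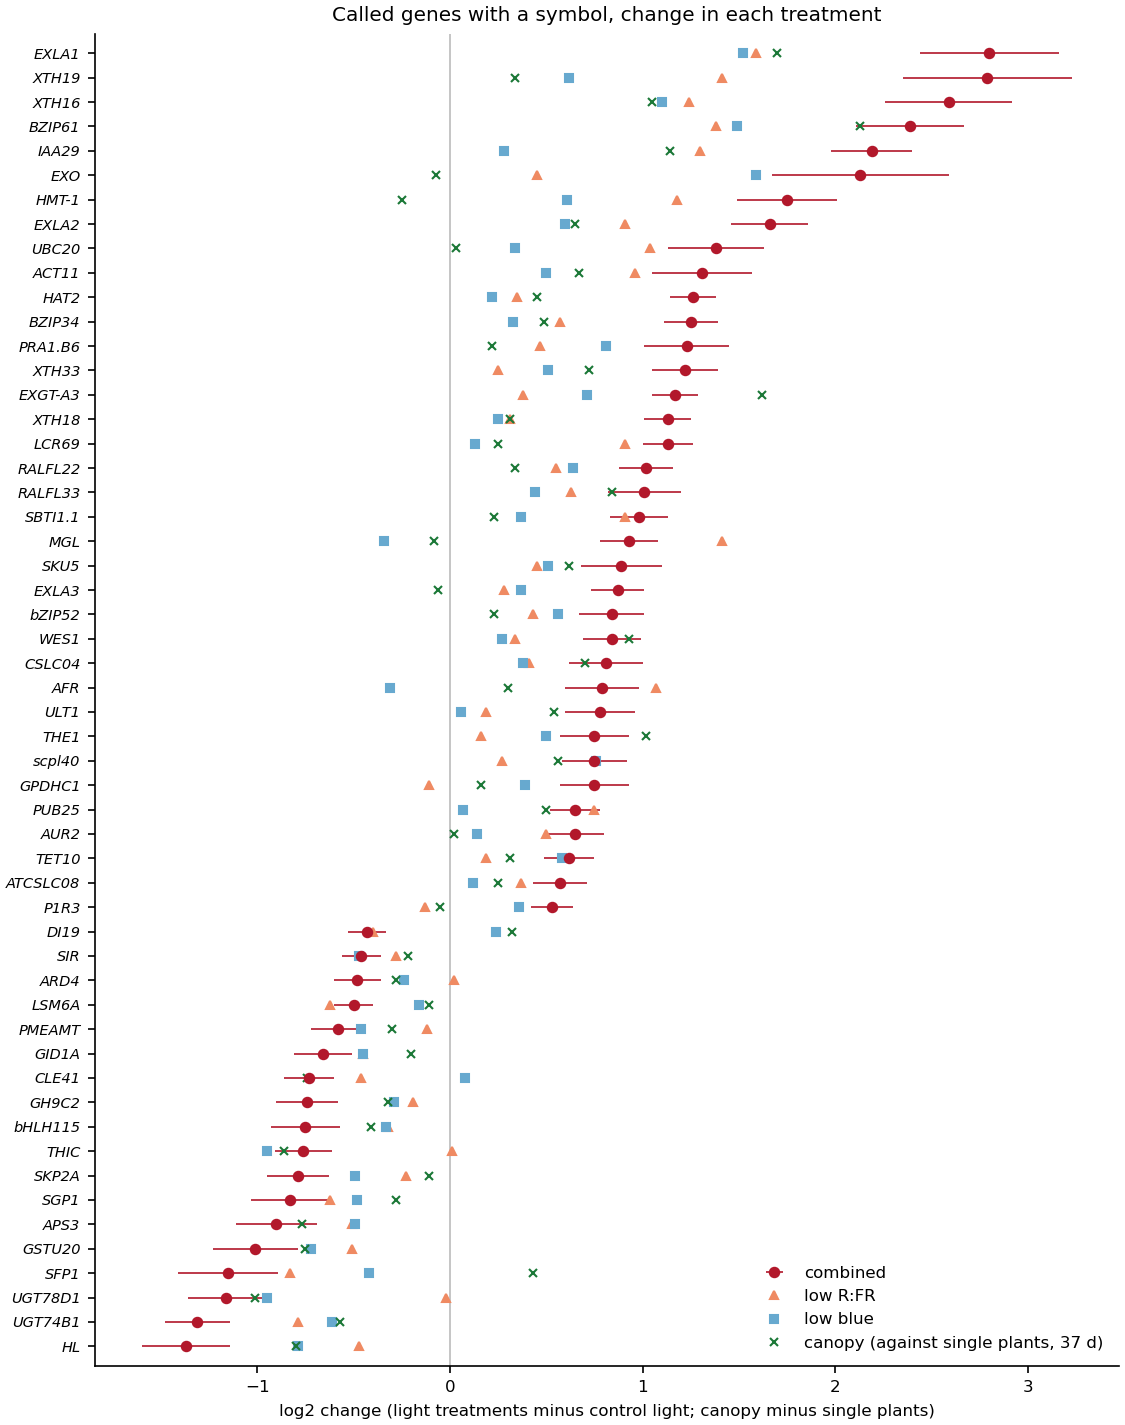
Log2 change of the 54 called genes with a symbol, with the combined change and its standard error (dots and bars), the low R:FR change (triangles), the low blue change (squares) and the canopy change (crosses). In HAT2 the combined change of 1.26 lies far above 0.35 for low R:FR and 0.22 for low blue.

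Whether the combined change departs from the sum of the 2 single changes was tested by the interaction. Limma called 0 probe sets (0%), the lowest adjusted p was 0.096, and 811 had an unadjusted p under 0.05, 33 of them among the 514 called. Fitting with a mean-dependent prior variance, or to the 12 light arrays alone, each called 1. The median interaction among probe sets called higher in combined light was 0.02, and among those called lower 0.05. Both sets were chosen by their combined change, which bears on these medians. The standard error of the interaction had a median of 0.24 among called probe sets. Small departures were not detectable, and the larger ones given next went uncalled as well. The 0 calls therefore do not show that the 2 single changes add up. HAT2 had an interaction of 0.70 ± 0.18 (adjusted p = 1). Of the loci, AT5G05250 had -2.05 ± 0.41 (adjusted p = 0.98), with 1.62, 1.46 and 1.5 in combined, 3.23, 3.36 and 3.61 in low R:FR, 3.16, 2.98 and 2.65 in low blue and 2.97, 2.55 and 2.73 in control light. AT4G27280 had 1.22 ± 0.34 (adjusted p = 1), with 4.78, 4.35 and 4.93 in low R:FR and 4.87, 4.49 and 4.32 in low blue. In both genes the combined arrays lay apart from the arrays of the other light groups. A total of 5 called probe sets had an interaction larger than 1 in size.

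The canopy was compared as a difference of effects, canopy minus its single plants less combined minus control light, which share no arrays. The ages of the plants, 29 d in combined light and 37 d in the canopy, and the length of exposure differ, and age and treatment cannot be told apart here. Canopy against single plants had 968 called probe sets (4.26%). The difference had 182 called (0.800%), 84 higher (0.369%) and 98 lower (0.431%), and 60 of them were among the 514. In all 60 the canopy change was smaller than the combined change or opposite to it, a direction that choosing them by their combined change nearly fixes. HMT-1 had a change of 1.75 in combined and of -0.25 in the canopy, a difference of -2.0 ± 0.37 (adjusted p = 0.021). Its canopy arrays lay at 3.72, 3.87 and 3.63 and its single plant arrays at 3.87, 4.12 and 3.98. MGL had a change of 0.93 in combined and -0.08 in the canopy (difference -1.01 ± 0.21, adjusted p = 0.036). HAT2 had a change of 1.26 in combined and 0.45 in the canopy (difference -0.81 ± 0.18, adjusted p = 0.04). XTH18, EXLA3 and LCR69 differed in the same way, by -0.82, -0.94 and -0.89 (adjusted p = 0.034, 0.038 and 0.029). DI19 had a change of -0.43 in combined and 0.32 in the canopy (difference 0.75 ± 0.15, adjusted p = 0.027). Among loci, AT2G27080 had a change of 2.00 in combined and -0.11 in the canopy (difference -2.11 ± 0.28, adjusted p = 0.0032), and AT1G74940 of -1.80 in combined and 0.15 in the canopy (difference 1.95 ± 0.37, adjusted p = 0.022). Of these, only the AT2G27080 call held without any 1 of the 12 arrays. That of HMT-1 was lost without canopy replicate 3 or combined replicate 2, that of DI19 without 4 and of AT1G74940 without 5 arrays, combined replicate 2 among them, and those of MGL, HAT2, XTH18, EXLA3 and LCR69 without 8 to 10 of them. The adjusted p then ran up to 0.058 for HMT-1, 0.071 for DI19, 0.064 for AT1G74940, 0.089 for MGL, 0.1 for HAT2, 0.083 for XTH18, 0.11 for EXLA3 and 0.082 for LCR69.

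For other genes no difference between the 2 effects was called. BZIP61 had a change of 2.39 in combined and 2.13 in the canopy (difference -0.26 ± 0.40, adjusted p = 0.9). EXGT-A3 had a change of 1.17 in combined and 1.62 in the canopy (difference 0.45 ± 0.16, adjusted p = 0.3). UGT78D1 had a change of -1.16 in combined and -1.01 in the canopy (difference 0.14 ± 0.28, adjusted p = 0.93), CLE41 of -0.73 in combined and -0.74 in the canopy (difference -0.02 ± 0.19, adjusted p = 0.99). A missed threshold does not show that the 2 effects are equal, and the standard errors of 0.16 to 0.40 set how large a difference could have passed unseen. In all, 107 of the 352 higher and 59 of the 162 lower probe sets were called in the same direction in the canopy, and 6 and 0 in the opposite one. Over all probe sets, 2.11% were called higher and 2.15% lower in the canopy.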

How the data were processed

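Biotin-labelled cRNA from 100 ng of petiole RNA was hybridised to Affymetrix ATH1 arrays. The authors deposited log2 expression values that, per the submitters' processing notes, were made with RMA. Its software and any arrays normalized along with these were not given in the sources used here. On the deposited values, the control transcripts BioC, BioD and Cre lay 2.04, 4.28 and 6.55 above BioB, nearer to nominal steps in log2 (1.74, 4.06 and 6.06) than in natural log (1.2, 2.81 and 4.2). RMA compresses differences near the floor; the mean lay below 1.5 in 46.8% of probe sets, so folds of dim genes are understated.

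All 18 arrays were fitted with limma 3.58.1 (R 4.3.3), with 1 mean per group, then eBayes (12 residual and 4.41 prior degrees of freedom). Two-sided p-values were adjusted by Benjamini-Hochberg over 22746 probe sets, with 64 control probe sets set aside. Names came from the platform's annotation, with symbols updated through a RefSeq gene table (TAIR10.1): 13513 probe sets had 1 gene, 503 several and 8730 were not listed. For a gene with several probe sets, lists used the one with the highest mean. The members and gene lists were chosen with earlier results of these data known, and 23 list memberships whose locus is another or an organelle gene were removed. Genes were named by rule: the 16 highest and 16 lowest called changes of 1-gene probe sets with separated groups; up to 6 called members of each list with 3 or more measured members, or the member with the largest change; and in the other comparisons the 5 highest and 5 lowest of the genes also called here. All other named genes, including the other called genes with a symbol, were chosen after their values were seen. The fit was tested on simulated data. Alternatives were quantile normalization, a filter on dim probe sets, a prior variance that follows the level, array weights, smaller sets of arrays, a replicate block and leaving out arrays. Promoter and protein sequences were not used here.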

Additional observations from a re-analysis of the deposited data

How the results depend on the processing

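In combined against control light, 514 probe sets were called. The count was 521 after quantile normalization, 574 over the 11373 probe sets at or above the median level, 520 with a prior variance that follows the level, 653 with array weights, 412 in the light arrays only, 272 in the arrays of the compared groups only and 563 with the replicate block. Leaving out 1 array gave 276 (without combined replicate 2) to 681 (without control light replicate 1). With control light replicate 2 as the only control, an alternative added after seeing the data, 112 were called and the lone array was assumed to vary like the other groups. Same-numbered combined and control light arrays correlated at 0.283, 0.042 and 0.335 in their deviations from the group means. Differently numbered ones correlated at -0.38 to 0.094. Other light groups differed in this. Same-numbered control light and low blue arrays correlated at -0.177, 0.023 and -0.396, and combined and low R:FR arrays at 0.142, 0.093 and -0.03. Whether same-numbered samples share more than a number was not tested. In combined against low R:FR (102 called) array weights gave 200, the arrays of the compared groups only 184 and leave-outs 52 to 68. In combined against low blue (292) the arrays of the compared groups only gave 132 and leave-outs 124 to 332. For the interaction (0) the level-dependent prior and the light arrays only each gave 1. For canopy effect minus combined effect (182) array weights gave 284, the arrays of the compared groups only 108, leave-outs 73 to 247 and control light replicate 2 alone 31. The 5 XTH and 3 expansin-like calls held in each setting that tested them, except XTH19 (adjusted p = 0.068) and EXLA3 (0.088) with control light replicate 2 alone; the level filter removed XTH18 and EXLA3. Of 82 called genes that were followed, 21 kept their call in each of the 14 settings that tested them (the level filter dropped 1 of the 21), 58 lost it with that lone control array, and none changed sign. The causes of these shifts were not tested. Signal near the floor limits dim genes, since 46.8% of probe sets had a mean level under 1.5.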

Other observations

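Much of the response lay in probe sets without a gene in the annotation used here. Of the 514 called probe sets, 285 were not listed, 196 higher and 89 lower, which is 55.4% of those called against 38.4% of those tested. Of the higher ones, 4 rose by more than EXLA1. The one with the lowest adjusted p had 6.29, 6.20 and 5.75 in combined and 2.65, 2.45 and 2.74 in control light (3.47 ± 0.22, limma adjusted p = 3.6e-07), with 5.37, 5.16 and 4.60 in low R:FR and 3.56, 2.97 and 3.46 in low blue. The one with the highest change had 5.22, 5.32 and 6.06 in combined and 2.87, 1.73 and 1.45 in control light (3.51 ± 0.46, adjusted p = 0.0004), with low R:FR arrays at 5.74, 5.42 and 5.02 (combined minus low R:FR 0.14 ± 0.46, adjusted p = 0.98). The one with the lowest change had 1.98, 1.34 and 3.77 in combined and 5.92, 5.20 and 5.87 in control light (-3.30 ± 0.78, adjusted p = 0.033).

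Called genes with a locus included 4 pairs of neighbours. EXLA3 and EXLA1 on chromosome 3 were higher by 0.87 and 2.80, XTH18 and XTH19 on chromosome 4 by 1.13 and 2.79, and AT3G50560 and AT3G50570 on chromosome 3 by 1.33 and 0.91. On chromosome 5, THE1 was higher by 0.75 and its neighbour HL had a change of -1.37. AT1G22330 is measured by more than 1 probe set, and those called gave changes of 1.5 and 1.23. Paralogues of the XTH and EXLA families may share probes, which was not tested.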
